A study of Mus musculus with 46 samples.

Results

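The sites described here are stretches of open chromatin in microglia, the resident macrophages of the brain, that lay away from gene starts and carried no H3K27ac peak in any group studied. ATAC-seq marks open chromatin through a transposase that inserts into accessible DNA, and H3K27ac is an acetylated histone mark of active promoters and enhancers. A site was kept when it was a peak of the adult ATAC list, its midpoint lay over 2500 bp from every transcription start site (TSS) of the count table, it overlapped a peak in both other ATAC lists by at least 1 bp, and it overlapped no peak in any of the 12 H3K27ac lists. Of 71642 adult ATAC peaks, 51734 were distal, 37468 of these were shared by the 3 ATAC lists, and 12298 had no H3K27ac peak, which is 17.2% of the adult list. The sites were thus chosen by ATAC presence and H3K27ac absence, and values of both marks are given only as a description. Rpb2, H3K4me3 and RNA were not used in the choice.

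All mice were male C57BL/6, and the series held 46 samples: 10 for RNA-seq, 12 for H3K27ac, 3 for Rpb2, 2 for H3K4me3, 3 for ATAC-seq and 16 of input chromatin. The ATAC libraries, 1 per group, came from untreated wild-type adults of 80 days, from Ki67-positive cells of postnatal day 8 (PND8), and from Ki67-positive cells of mice aged 75 days that had received the CSF1R inhibitor PLX5622 from day 55 for 17 days and recovered for 3 days (repopulation). The titles of the last 2 ATAC libraries name the Ki67 reporter while their genotype label reads wild type. The 12 H3K27ac lists, 2 per group, came from wild-type mice: adults of 60 and 65 days, PND8 cells of either Ki67 status, cells of either Ki67 status from mice of 90 days fed cuprizone for 4 weeks, which strips myelin, and Ki67-positive repopulating cells of mice of 90 days, with PLX5622 from day 70. Rpb2 was measured in adults of 60 and 65 days and in 1 library of Ki67-positive PND8 cells, and H3K4me3 in 2 libraries of adults of 75 days. RNA came from untreated wild-type adults of 90 days, labelled Ki67-negative, and, in Ki67-rfp reporter mice, from Ki67-negative and Ki67-positive cells of PND8 and of repopulation at 75 days, with 2 libraries per group. The adult RNA group thus differed from the other 4 in genotype as well as in age or treatment, and from the proliferating groups compared with it in Ki67 status. Cells were sorted on CD11b, CD45 and CD44 in the presence of butyrate, which inhibits histone deacetylases, and flavopiridol, which inhibits transcription elongation. Cells for immunoprecipitation were fixed and stained for Ki67.

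RNA libraries held between 6865903 and 10287876 counts and the ATAC libraries between 6676695 and 8585406 tags. The label of microglia was checked against 10 markers, whose summed level was 4430 to 5588 TPM, a level scaled for transcript length and library, across the 10 RNA libraries. Summed markers of border macrophages ranged from 7.54 to 258 TPM, the highest in PND8 Ki67-positive replicate 2. Those of monocytes or neutrophils ranged from 2.62 to 373 TPM, the highest in adult replicate 1, and those of astrocytes from 21.3 to 190 TPM. Neuronal markers summed to at most 5.08 TPM, oligodendrocyte lineage markers to 30.6 to 58.9 TPM, endothelial markers to 15.4 to 38.7 TPM, erythroid markers to 0.311 to 114 TPM and lymphocyte markers to at most 0.649 TPM. Their part in the results below was not tested. In bulk samples, fewer cells of a type and less RNA per cell cannot be told apart.

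As background, an open site without H3K27ac can be a poised or silenced enhancer, a binding site of an architectural protein such as CTCF, which with cohesin shapes chromatin loops, or a promoter that is accessible but idle. H3K4me3 is a mark of promoters, in particular those rich in CpG. Rpb2 is the second largest subunit of RNA polymerase II, and its peaks mark places where polymerase is loaded or paused. In microglia, lineage factors such as PU.1, the ETS factor encoded by Spi1, open much of the distal landscape.

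The sequence could be read for the sites that overlap a window around a RefSeq gene start of build GRCm38.p6 (mm10), from 250 bases before to 50 after the start. This held for 150 sites (1.22%), against 336 (2.08%) of the shared distal sites with H3K27ac in 1 to 11 lists and 305 (3.38%) of those with it in all 12. The starts are ones that the count table, with 1 transcript per gene, does not hold: 97 belong to lncRNA genes and 53 to protein-coding genes. The sequences below are those of the whole ATAC peak on the strand of the RefSeq gene. The first set shows the 6 sites of highest adult ATAC signal among those with the CTCF core inside the peak and the whole peak inside the window, with the core in capitals, because its share is compared between sets of windows in the paragraph that follows the sequences.

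Glipr1l3 (chr10:112160323-112160435, minus strand): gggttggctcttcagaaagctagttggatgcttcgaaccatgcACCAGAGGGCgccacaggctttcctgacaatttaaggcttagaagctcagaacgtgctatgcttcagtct
Chrna1os (chr2:73584694-73584806, plus strand): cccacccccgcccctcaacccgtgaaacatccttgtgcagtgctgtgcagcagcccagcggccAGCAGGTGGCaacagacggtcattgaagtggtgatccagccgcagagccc
Gm41414 (chr16:5306736-5306848, plus strand): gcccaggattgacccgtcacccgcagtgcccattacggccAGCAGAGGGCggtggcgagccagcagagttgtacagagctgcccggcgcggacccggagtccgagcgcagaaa
E330013P04Rik (chr19:60144509-60144621, plus strand): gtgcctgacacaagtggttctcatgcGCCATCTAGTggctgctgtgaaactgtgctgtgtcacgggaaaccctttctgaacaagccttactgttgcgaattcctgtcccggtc
Gm33460 (chr9:118489810-118489922, minus strand): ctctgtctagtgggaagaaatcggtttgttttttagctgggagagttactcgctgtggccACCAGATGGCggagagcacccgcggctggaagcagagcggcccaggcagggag
Gm32630 (chr7:16932111-16932223, minus strand): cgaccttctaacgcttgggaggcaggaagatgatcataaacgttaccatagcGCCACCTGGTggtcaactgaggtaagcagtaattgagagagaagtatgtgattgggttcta

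The second set shows the 3 sites of highest adult ATAC signal among those with H3K4me3 in both lists and the whole peak inside the window, with every CpG in capitals, because CpG content differed between windows with and without this mark.

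Bcar1 (chr8:111732126-111732238, minus strand): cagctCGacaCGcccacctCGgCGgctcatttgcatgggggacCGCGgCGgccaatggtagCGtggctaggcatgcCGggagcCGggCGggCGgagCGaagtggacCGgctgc
A930016O22Rik (chr7:19421404-19421516, minus strand): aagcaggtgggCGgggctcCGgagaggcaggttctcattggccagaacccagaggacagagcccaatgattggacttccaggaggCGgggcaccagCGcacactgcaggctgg
Ptpre (chr7:135537708-135537820, plus strand): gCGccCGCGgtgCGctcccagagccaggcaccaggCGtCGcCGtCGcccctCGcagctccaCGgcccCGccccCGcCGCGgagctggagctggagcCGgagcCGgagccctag

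The CTCF core, searched by name on both strands, was present in 26 of the 150 windows, or 17.3% (exact 95% interval 11.6 to 24.4%). It was present in 19 of 336 windows (5.65%, 3.44 to 8.69%) at sites with H3K27ac in 1 to 11 lists and in 7 of 298 windows (2.35%, 0.95 to 4.78%) at sites with it in all 12. Over all 32815 RefSeq windows of this length the share was 2.04%, and over the 9477 windows that overlap any adult ATAC peak it was 3.04%. The interval of the sites without H3K27ac lay above both others, which overlapped each other, and intervals cover counting error only. In 23 of the 26 windows the core lay in the bases covered by the ATAC peak, and 22 of the 26 belonged to lncRNA genes. Among lncRNA windows alone the shares were 22.7%, 9.04%, 2.48% and, for any adult ATAC peak, 6.03%. The core searched, with its ambiguous positions, was settled after the Glipr1l3 window had been read and a longer consensus had been seen to miss it by 1 base. The comparison across sets was added after the first shares were seen. With the longer consensus the shares were 12% (18 windows), 3.57%, 1.34% and, over all windows, 0.558%, in the same order.

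The 6 sites shown with the core varied widely in accessibility. Their signals are tags per 10000000, in the order adult, PND8 and repopulation. The Glipr1l3 site, near the start of a gene of the GLIPR1-like family, had 266.6, 147.8 and 92, and its nearest TSS in the count table was that of Caps2 at 5.30 kb. The Chrna1os site had 130.3, 38 and 94.3, and the Gm41414 site 92.9, 80 and 103.7. The E330013P04Rik site had 65.9, 44.7 and 54.7, the Gm33460 site, 11.7 kb from the T-box factor gene Eomes, 52.4, 43.4 and 73.4, and the Gm32630 site 37.4, 23 and 33.8. The adult value was the highest of the 3 at 4 of the 6 sites and the repopulation value at Gm41414 and Gm33460. Of the 26 windows with the core, 8 overlapped H3K4me3 in either list and 5 overlapped Rpb2 in PND8.

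The other motifs are given as shares of the 150 windows, of all RefSeq windows and of windows under any adult ATAC peak. PU.1 (GAGGAAGT) was found in 6.67%, 3.2% and 3.87%, and in 8.04% and 6.71% of windows of the 2 distal sets with H3K27ac. RUNX (TGTGGTT) was found in 10.0%, 5.27% and 3.64%, AP-1 (TGANTCA) in 10.0%, 7.81% and 4.61% and C/EBP (TTGCNNAA) in 14.0%, 10.8% and 7.89%. ETS (CCGGAAG), which shares its GGAAG with the PU.1 letters, was found in 5.33%, 8.86% and 19.3%, MiT-TFE (CACGTGA) in 1.33%, 3.76% and 6.45% and IRF (GAAANNGAA) in 8.00%, 8.55% and 6.96%. ETS and MiT-TFE were scarcer in the 150 windows than in windows under any adult ATAC peak. At distal sites with H3K27ac in 1 to 11 lists they were found in 7.44% and 5.36% of windows. With it in all 12 lists they were found in 12.8% and 8.39%. For both motifs the interval for 1 to 11 lists overlapped that of the 150 windows, so the scarcity is not shown to be particular to sites without H3K27ac. A match describes letters in the window and does not show that a factor binds there. Mean GC content was 54.9% in the 150 windows and 53.8% in all.

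At the same 150 starts, windows with H3K4me3 were richer in CpG. The 47 windows with H3K4me3 in both lists (31.3%) held a median of 18 CpG (range 1 to 53), and the 87 with it in neither list held a median of 6 (range 1 to 18). All RefSeq windows had a median of 7. None of the 150 overlapped an adult Rpb2 peak in either library, and 25 (16.7%) overlapped one in PND8. Over all 12298 sites the adult shares were 0.585% and 0.154% and the PND8 share was 12.1%. At such low adult shares, none among 150 says little about these starts. The Bcar1 site lay at an alternative start of Bcar1, which encodes a docking protein of focal adhesions, 11.7 kb from the TSS of the table. It had ATAC signals of 242.6, 185.7 and 245.8, H3K4me3 signals of 125.4 and 127.6, and an Rpb2 signal of 10.1 in PND8, while its nearest H3K27ac peak was 71.8 kb away. The Ptpre site, at a start of a receptor-type tyrosine phosphatase gene, had H3K4me3 signals of 72.5 and 104.4 and no Rpb2 peak. The A930016O22Rik site had 84.9 and 55.2 and no Rpb2 peak. One further site overlapped 90 bases of the hairpin of mmu-miR-1955 on chr2, with ATAC signals of 43.4, 24.4 and 23.3. The mature 5p arm of the hairpin is given with the seed, bases 2 to 8, in capitals.

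mmu-miR-1955-5p: aGUCCCAGgaugcacugcagcuuuu

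Open sites without H3K27ac were weak peaks relative to open sites that carry the mark. Their median adult ATAC signal was 24.0 tags per 10000000, against 38.9 for sites with H3K27ac in 1 to 11 lists (16138 sites) and 73.4 for sites with it in all 12 (9032 sites). Medians in PND8 were 21.7, 28.5 and 47.4, and in repopulation 25.6, 38.4 and 60.6. In all 3 libraries the sites without H3K27ac were lowest and those with it in every list highest. One tag of the adult library counts for 1.5 units, so the values of single sites rest on few tags. The median fold of signal over the surrounding region, as the authors' peak caller gives it, ran the other way: 75.0 for sites without H3K27ac, 44.6 with it in 1 to 11 lists and 31.7 with it in all 12.

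**Figure D1:**
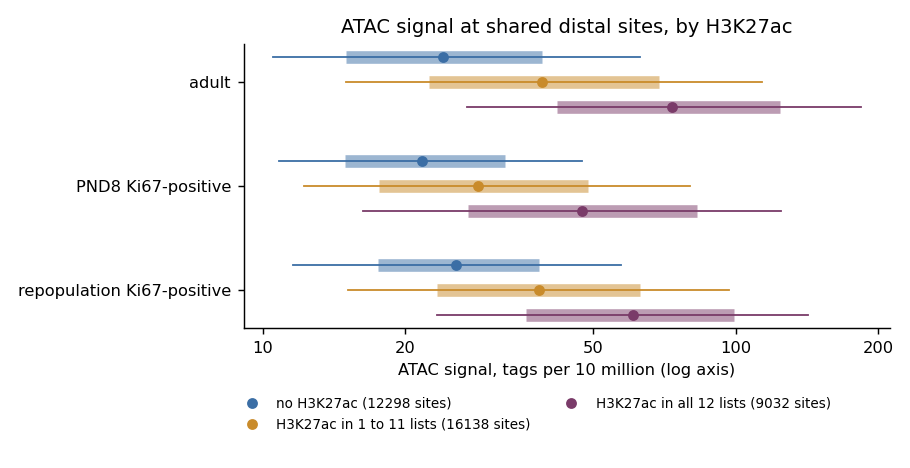
ATAC signal (tags per 10000000, log axis) of shared distal sites in each of the 3 ATAC libraries, by H3K27ac class. Points are medians over sites, boxes span the middle 50% and lines the 10th to 90th percentiles. In each library the sites without H3K27ac lie lowest, with medians of 24.0, 21.7 and 25.6, and the sites with H3K27ac in all 12 lists highest.

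The share of shared distal sites that lacked H3K27ac fell with adult signal: 56.4% in the lowest quartile, 40.9% and 25.9% in the next ones and 9.81% in the highest. Of the 100 strongest shared distal sites 5 lacked H3K27ac, and of the 1000 strongest 34 did. The strongest lay on chr2:98667080-98667192, 1199 kb from Lrrc4c, with signals of 1232.6, 1367.8 and 2118.7, and a second at chr2:98666551-98666663 had 471.8, 631.7 and 920.2. Next were chr6:103649161-103649273 inside Chl1, a neural cell adhesion gene, with 452.3, 1540 and 667.4, and chr3:5860609-5860721, 284 kb from Pex2, with 441.8, 757.8 and 802.5. The fifth, chr2:84956465-84956577 inside the transporter gene Slc43a3, had 384.9, 141 and 177. At the first 4 sites the adult value was the lowest of the 3, and only the fifth was highest in the adult. The distance of the second and the first site was under 1 kb, and both were over 1000 kb from any H3K27ac peak. Peaks were not filtered here for repeats or artefact-prone regions, so mapping artefacts among the strongest sites were not checked.

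Signals of these sites varied more between libraries than signals at sites with H3K27ac in all 12 lists. After centring each library on the median of all shared ATAC peaks, 2213 sites without H3K27ac (18%) were at least 2-fold higher in PND8 than in adult, against 9.61% of all shared ATAC peaks, and 686 (5.58%) at least 2-fold lower, against 6.51%. In repopulation 2161 (17.6%) were at least 2-fold higher than in adult, against 10.6%, and 659 (5.36%) at least 2-fold lower, against 5.02%. Sites with H3K27ac in all 12 lists passed 2-fold in 2.25% (higher) and 8.61% (lower) in PND8 and in 3.65% and 4.77% in repopulation. Sites with it in 1 to 11 lists passed 2-fold in 11.4% and 9.65% in PND8 and in 14.4% and 6.74% in repopulation, so their total past 2-fold was near that of the sites without H3K27ac. Each group had 1 ATAC library, so these differences have no replicate check, and the sites were listed from the adult library. Median adult signal was 24.0 without H3K27ac and 73.4 with it in all 12 lists. Weaker sites rest on fewer tags and so carry more counting error. The sets were not compared at matched signal, and the part of counting error in these differences was not tested. Rank correlation of signal across the 12298 sites was 0.54 between adult and PND8, 0.55 between adult and repopulation and 0.71 between PND8 and repopulation. Across the 9032 sites with H3K27ac in all 12 lists it was 0.85, 0.85 and 0.88, and across the 16138 with it in 1 to 11 lists 0.68, 0.69 and 0.79. The sites share these libraries and their depth, and the correlations are descriptions only.

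Distances to genes were of the same order in the 3 distal sets. The median distance to the nearest TSS was 26.6 kb, against 29.7 kb and 24.8 kb for sites with H3K27ac in 1 to 11 and in all 12 lists, and 1860 (15.1%) lay over 100 kb away. Inside a gene body lay 45.6%, against 52.6% and 54.8%. On the numbered chromosomes and X they made up between 28.6% (chr11) and 35.4% (chr18) of the shared distal sites. Their nearest H3K27ac peak of any list was at a median of 10.3 kb; 1484 sites (12.1%) had one within 1000 bp and 6237 (50.7%) none within 10 kb. A further 1954 shared distal sites overlapped exactly 1 of the 12 H3K27ac lists. The largest numbers came from repopulation replicate 1 (386), PND8 Ki67-positive replicate 2 (355) and repopulation replicate 2 (251). Replicate 1 of that PND8 group gave only 84, fewer than either cuprizone list of replicate 2 (225 and 204). The numbers thus varied between replicates of a group, and the part of list length in them was not tested. Just inside the TSS threshold, at 2502 bp, lay a site near Ugt1a7c with signals of 15, 19 and 25.6. Just outside it, at 2500 bp, lay a site near Stbd1 with 21, 10.8 and 16.3.

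RNA polymerase was listed less often at sites without H3K27ac than at distal sites with the mark in each of the 3 libraries. In adult replicate 1 an Rpb2 peak overlapped 72 of 12298 sites (0.585%, exact 95% interval 0.458 to 0.737%), and in adult replicate 2 it overlapped 19 (0.154%, 0.0930 to 0.241%). In PND8 Ki67-positive cells the number was 1492 (12.1%, 11.6 to 12.7%). Sites with H3K27ac in 1 to 11 lists had shares of 5.59%, 1.62% and 37.0% in the same libraries, and sites with it in all 12 lists 33.1%, 16.7% and 61.1%. Over all adult ATAC peaks the shares were 15.2%, 9.42% and 32.2%. Within each of the 3 Rpb2 libraries the sites without H3K27ac had the lowest share, and no interval overlapped that of another distal set. The lists held 14550, 10544 and 31602 peaks from 18535188, 26312426 and 26823101 tags, so shares are not compared between libraries. Intervals cover counting error over sites only, and the libraries, not the sites, are the replicates.

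H3K4me3 was also scarcer than at the 2 distal sets with H3K27ac. It overlapped 775 sites (6.30%) in replicate 1 and 737 (5.99%) in replicate 2, and 603 sites (4.90%, 4.53 to 5.30%) in both. The share with the mark in both lists was 14.3% and 27.1% for sites with H3K27ac in 1 to 11 and in all 12 lists, and 32.7% over all adult ATAC peaks. A site without H3K27ac overlapped neither Rpb2 nor H3K4me3 in any list in 9988 cases (81.2%), against 51.4% and 22.1% of the sets with H3K27ac in 1 to 11 and in all 12 lists. No site overlapped Rpb2 in all 3 lists and H3K4me3 in both, and 0 of 12298 allows a share of up to 0.0300%. That share was 0.496% and 6.06% with H3K27ac in 1 to 11 and in all 12 lists, and 5.34% over all adult ATAC peaks. Only 2 sites without H3K27ac had Rpb2 in all 3 lists, so hardly any joint site was possible.

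**Figure D2:**
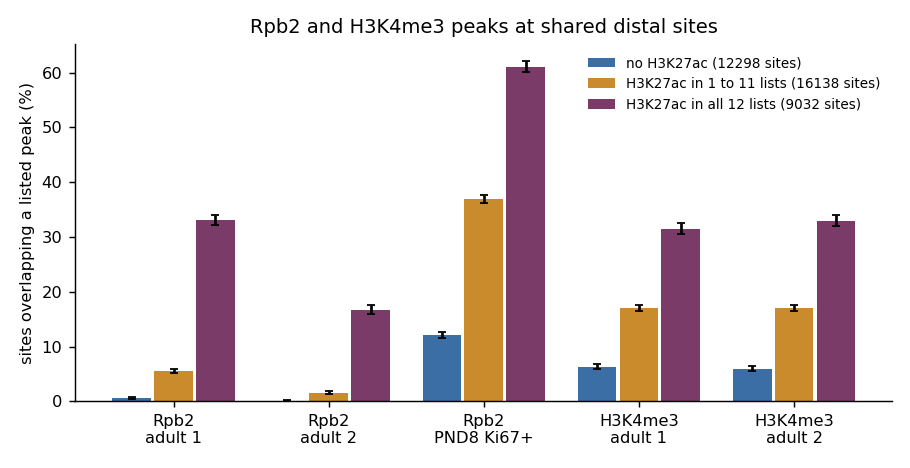
Share of shared distal sites (%) that overlap a peak in each Rpb2 and H3K4me3 library, by H3K27ac class. Bars show shares with exact 95% intervals for counting error over sites. The sites without H3K27ac have the lowest share in each of the 5 libraries, from 0.154% to 12.1%.

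The peaks of both marks at these sites were mostly low within their own lists. Median Rpb2 signal at a site was 12.7 against 25.9 over the list in adult replicate 1, 11.4 against 17.1 in adult replicate 2 and 8.95 against 16.0 in PND8. Median H3K4me3 signal was 35.1 against 260.2 and 35.8 against 263.3 in the 2 replicates. The H3K4me3 peaks were also narrower, with a median width of 636 bp against 1275 bp and of 635 bp against 1261 bp. The median overlapping peak of both marks thus lay in the lower part of each list. Single peaks reached 605.1 for Rpb2 in PND8 and 3536.1 for H3K4me3 in replicate 2.

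Rpb2 in PND8 was more frequent at strong sites. It overlapped 5.51%, 10.5%, 19.0% and 35.9% of the sites without H3K27ac from the lowest to the highest quartile of adult ATAC signal. At sites with H3K27ac in 1 to 11 lists the highest quartile had 63.7% and with it in all 12 lists 76.6%. Sites without H3K27ac thus had the lowest share in each quartile of signal. In H3K4me3 replicate 1 their share ran from 5.33% in the lowest quartile to 10.5% in the highest, against 32.5% and 32.9% at sites with H3K27ac in all 12. Distance to the TSS moved with H3K4me3 more than with Rpb2. Both H3K4me3 lists overlapped 8.73% of the sites 2.5 to 5 kb from a TSS, 5.50% at 5 to 10 kb, 4.60% at 10 to 50 kb and 4.12% beyond, while Rpb2 in PND8 overlapped 9.73%, 13.1%, 13.4% and 10.5%.

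**Figure D3:**
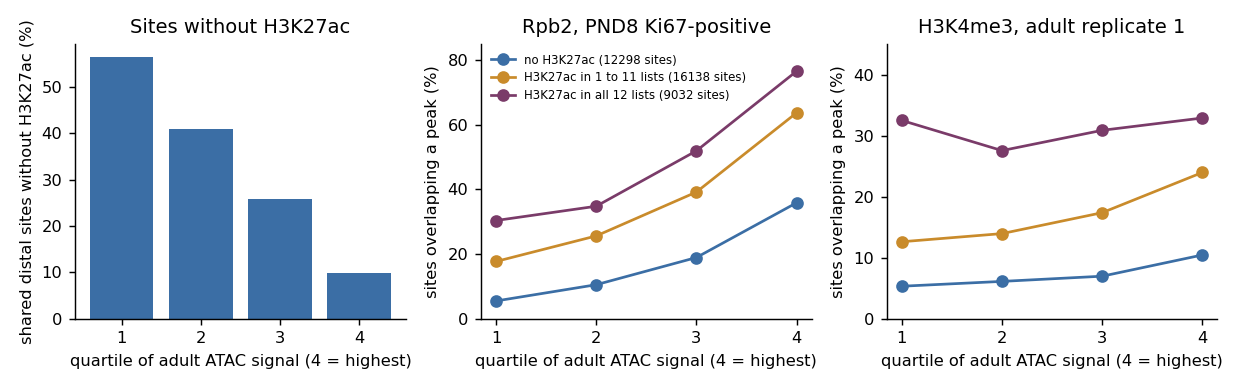
Shared distal sites by quartile of adult ATAC signal (4 is highest): share without H3K27ac (left), share overlapping Rpb2 in PND8 Ki67-positive cells (middle) and share overlapping H3K4me3 in adult replicate 1 (right), in %. The share without H3K27ac falls from 56.4% to 9.81%, and at sites without H3K27ac the Rpb2 share rises from 5.51% to 35.9%.

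Rpb2 in all 3 lists was found at 2 sites without H3K27ac. One, at chr12:8433030-8433142, lay 66.9 kb from Rhob, which encodes a small GTPase, with Rpb2 signals of 12.4, 12.5 and 13 and ATAC signals of 98.9, 19.0 and 32.6. The nearest H3K27ac peak was 12 bp away. The other, at chr6:30210953-30211065, lay 93.5 kb from the ubiquitin-conjugating enzyme gene Ube2h, with Rpb2 signals of 10.3, 7.60 and 8.57. The highest Rpb2 signals were of another kind. Near Tmem30c (chr16:57391477-57391589) they were 479.6 in adult replicate 1 and 605.1 in PND8, near Pex2 452.7 and 603.6, near Txndc11 349.6 and 463.8 and in Cdk8 345.3 and 453.3. All 4 of these sites were absent from the list of adult replicate 2. One input library served H3K27ac and Rpb2 of adult replicate 1, per its label, and the PND8 list names an H3K27ac input in its header. The part of this, or of mapping artefacts, in the difference was not tested. These 4 sites were higher in PND8 and repopulation than in adult ATAC, for example 295.1, 742.9 and 631.3 near Tmem30c.

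The highest H3K4me3 signals in both lists lay within 6 kb of a TSS. In Brd2, which encodes a bromodomain reader of acetylated histones, the site at chr17:34117191-34117303 had H3K4me3 signals of 2986.5 and 3205.6. In Tgif1, a homeobox corepressor gene, they were 2826.7 and 3060.1, and near Fosl2, an AP-1 gene, 1940.1 and 2106.7. Near Ccnd1, which encodes cyclin D1, they were 1931.5 and 2052.3, in the semaphorin receptor gene Nrp2 1491.3 and 1388.3, and in the zinc finger gene Bcl11a 1093.9 and 1018.3. Their ATAC signals were modest, from 18 (Bcl11a) to 67.4 (Ccnd1) in adult, and the nearest H3K27ac peak lay 0.103 to 2.10 kb away. At these 6 sites Rpb2 was listed only at Bcl11a, in PND8 (10.8).

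The 12298 sites were nearest to the TSS of 7058 genes, which is 33.6% of the 20999 genes of the table. A single site was nearest to 4216 of these genes and 5 or more sites to 282. Of the 7058, 2115 (30.0%) were also nearest to a site with H3K27ac in all 12 lists, and those are 58.2% of the 3635 genes with such a site. Genes with more sites without H3K27ac were expressed at a higher level. Median TPM in the 2 adult libraries was 0.580 and 0.581 for genes with no site, 7.21 and 7.16 with 1 site, 9.49 and 9.02 with 2 to 4 and 17.2 and 16.1 with 5 or more. Genes with more sites were also longer and farther from their neighbours. Their median body was 12.3, 22.5, 31.8 and 73.7 kb and the median stretch nearest to their TSS 35.3, 63.9, 124 and 361 kb, so level, length and room for sites moved together. Genes with a site without H3K27ac but none with it in all 12 lists had a median of 2.41 and 2.26 TPM, against 31.5 and 30.8 for genes with both and 34.1 and 34.3 for genes with a site of the latter kind only.

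**Figure D4:**
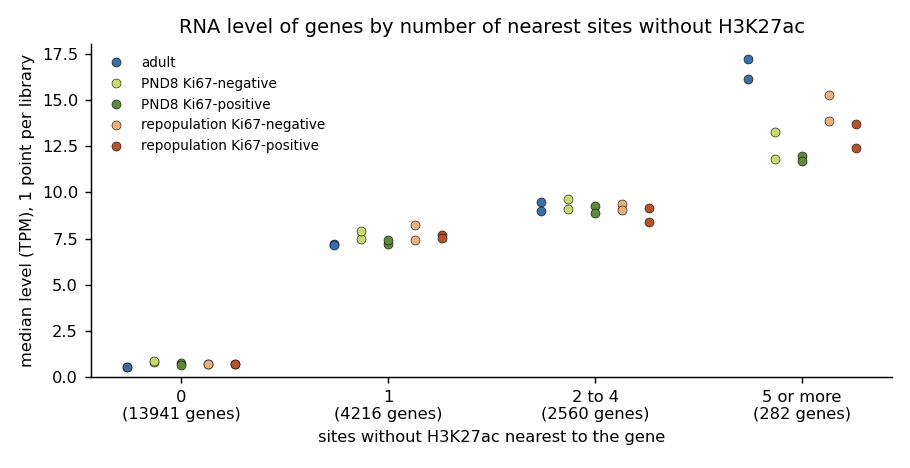
Median RNA level (TPM) of genes by the number of sites without H3K27ac that are nearest to their TSS, with 1 point per RNA library and colours for the 5 groups. Genes with no site have medians of 0.58 in adult and genes with 5 or more sites have the highest medians, 17.2 and 16.1 in adult against 11.7 to 13.2 in the PND8 libraries.

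Genes with many sites were named by rule, and the 10 with the most were Adgrl2 and Rab3c with 15 each, Prkcq with 12, Foxo1 and Mef2c with 11, and Jarid2, Nrip1, Rapgef5, Usp25 and Usp6nl with 10. Adgrl2, encoding the adhesion receptor latrophilin 2, had sites 86.8 to 734 kb from its TSS with adult signals of 7.49 to 125.8. Rab3c, a gene of vesicle release in neurons, was near 0 in RNA, with 0.104 to 2.31 CPM (counts scaled to the library total) across the libraries other than PND8 Ki67-negative replicate 1, where it was 0, and it had no site with H3K27ac in all 12 lists. Its strongest site, at chr13:109776227-109776339, lay in the neighbouring gene Pde4d. Prkcq encodes protein kinase C theta, and Foxo1 a forkhead factor that acts downstream of insulin signalling. Mef2c, encoding a factor central to the microglial state, had 11 sites without H3K27ac and 11 with it in all 12 lists. Jarid2 encodes a polycomb cofactor and Nrip1 a nuclear receptor corepressor.

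In the comparison of proliferating PND8 cells with adult cells, genes with 5 or more sites were more often lower than higher. With edgeR's quasi-likelihood test at a Benjamini-Hochberg adjusted threshold of 0.05, 99 of 230 tested (43.0%) were lower and 34 (14.8%) higher, where 24.3% and 25.1% of all 12230 genes tested were, and 49.5% in either direction. The median log2 fold change of the 230 was -0.25, against 0.00 over all genes. Over the 4951 tested genes with 1 or more sites, 1352 (27.3%) were lower and 1190 (24.0%) higher, near the shares of all genes. With library sizes in place of TMM factors these were 1243 lower and 1273 higher, so that the balance turned. Without any 1 of the adult or PND8 Ki67-positive libraries, the lower calls among genes with 5 or more sites numbered 74 to 81 and the higher 25 to 28. The adult RNA libraries carry a header code of their own (190710), which the labels do not explain, so code and group cannot be told apart in comparisons with adult. The choice of genes by number of sites also favours long and expressed genes, and the part of length and level in these shares was not tested. Genes with 5 or more sites with H3K27ac in all 12 lists also had lower median levels in PND8 Ki67-positive cells. These were 55.5 and 55.7 TPM, against 70.7 and 72.1 in adult. Calls were not counted for that set, so the lean is not shown to be particular to sites without H3K27ac.

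Among named genes lower in PND8, Foxo1 had 94.8 and 85.3 CPM in adult and 55.7 and 51.7 in PND8 Ki67-positive cells, and it fell by 0.75 ± 0.12 on the log2 scale (SE, adjusted p = 1.83e-04). Nav2, encoding a cytoskeletal protein of growth cones, had 260 and 287 in adult and 22.2 and 22.5 in PND8. It fell by 3.61 ± 0.22 (adjusted p = 3.16e-08). Trp53i11, a target of p53 with 8 sites, had 67.5 and 60.6 against 6.06 and 4.97 and fell by 3.53 ± 0.20 (adjusted p = 1.52e-08). In these 3 genes the adult libraries lay above both PND8 libraries without overlap, which for Nav2 and Trp53i11 was a condition of being named. Setbp1, which encodes a binding partner of the oncoprotein SET, had 23.7 and 23.8 against 2.42 and 1.73, and Fam49a, which acts on Rac signalling, had 48.5 and 43.1 against 6.94 and 4.74. Setbp1 fell by 3.50 ± 0.29 (adjusted p = 5.59e-07) and Fam49a fell by 2.96 ± 0.20 (adjusted p = 8.45e-08). Celf4, encoding an RNA-binding protein, had 6.94 and 4.15 against 0.330 and 1.04 and fell by 3.01 ± 0.53 (adjusted p = 4.36e-04).

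Among named genes higher in PND8, Diaph3, encoding a formin that builds actin filaments in dividing cells, had 1.16 and 1.59 CPM in adult and 86.1 and 92.8 in PND8 Ki67-positive cells, a log2 fold change of 6.02 ± 0.27 (adjusted p = 2.29e-09). Its PND8 Ki67-negative values were lower, 24.6 and 38.5. For Rmi2 the PND8 Ki67-negative values were the higher ones, 16.8 and 14.4 CPM against 6.28 and 5.9 in Ki67-positive cells. Rmi2, encoding a subunit of the complex that dissolves recombination intermediates, had 2 counts in adult and 108 in PND8, a ratio of 51.2 (counting interval 13.8 to 428.6; adjusted p = 2.96e-06). Emb, encoding the membrane protein embigin, had 2 and 44 counts, a ratio of 20.9 (5.45 to 177.8; adjusted p = 5.60e-04), and Mpzl1, encoding a cell surface protein, had 1.27 and 0.122 against 10.24 and 7.98 CPM (3.66 ± 0.56, adjusted p = 1.35e-04). Mreg had 0 counts in adult and 11 in PND8, at least 3.48-fold higher with a floor of 3 counts over the group (adjusted p = 0.0150), but the call was lost in 3 alternatives and adjusted p was 0.0742 without adult replicate 1. For these 5 genes the adult libraries lay below both PND8 libraries, which was a condition of being named.

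In repopulating cells the same class of genes was again more often lower than higher. Of 230 tested, 88 (38.3%) were lower and 36 (15.7%) higher than in adult, against 21.0% and 23.9% of all genes tested and 44.9% in either direction. The median log2 fold change was -0.20 against -0.01. Among genes with 1 or more sites, 1184 (23.9%) were lower and 1162 (23.5%) higher, or 1287 and 1103 with library sizes only. Without repopulation replicate 2 the total over genes with 5 or more sites was 82 in place of 124, with 58 lower and 24 higher. Without any 1 of the 4 libraries the lower calls numbered 58 to 81. The comparison shares its adult libraries with that of PND8. Genes with 5 or more sites with H3K27ac in all 12 lists had medians of 61.1 and 57.2 TPM in repopulating Ki67-positive cells, against 70.7 and 72.1 in adult.

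Among named genes, Lifr, encoding the receptor of leukaemia inhibitory factor, had 375 and 364 CPM in adult and 131 and 118 in repopulation and fell by 1.57 ± 0.11 (adjusted p = 1.71e-07). Plxna4, a semaphorin co-receptor, had 324 and 320 against 121 and 86.8 and fell by 1.62 ± 0.19 (adjusted p = 1.28e-05). Setbp1 fell by 3.49 ± 0.30 (adjusted p = 7.72e-07), close to its value in PND8. Plpp3, a lipid phosphatase gene, had 14.8 and 10.3 against 3.01 and 3.31 and fell by 1.99 ± 0.40 (adjusted p = 1.25e-03). Col25a1, encoding a membrane collagen, had 6.94 and 7.21 against 1.27 and 2.02 and fell by 2.12 ± 0.56 (adjusted p = 7.39e-03), with an adjusted p of 0.0727 without repopulation replicate 1. In these 5 genes the repopulation libraries lay below both adult libraries, which was a condition of being named.

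Higher in repopulation than in adult were Haao, Capg, Il1r2, Diaph3 and Rmi2. Haao, which encodes an enzyme of the kynurenine pathway, had 7.17 and 7.45 CPM in adult and 71.1 and 78.7 in repopulation (3.35 ± 0.15, adjusted p = 2.39e-09). Capg, encoding an actin-capping protein of macrophages, had 22.9 and 18.9 against 175 and 220 (3.24 ± 0.20, adjusted p = 4.40e-08). Il1r2, encoding the decoy receptor of interleukin 1, had 2 counts in adult and 41 in repopulation, a ratio of 22.1 (5.75 to 188.8; adjusted p = 1.18e-03). Diaph3 had 77.4 and 84.8 (5.87 ± 0.27, adjusted p = 3.42e-09), and Rmi2 had 100 counts, a ratio of 54.0 (14.6 to 451.7; adjusted p = 3.10e-06). In each of these genes the repopulation libraries lay above both adult libraries, again a condition of being named.

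**Figure D5:**
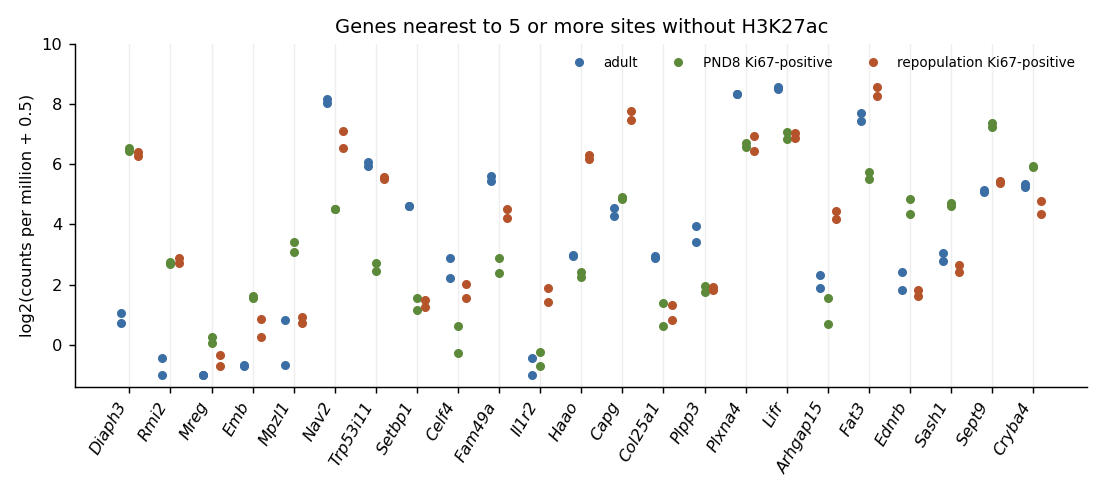
RNA level, log2 of CPM plus 0.5, of the genes nearest to 5 or more sites without H3K27ac that were named by rule in the 3 comparisons, with 1 point per library (2 per group). Nav2, Trp53i11 and Fam49a are lowest in PND8, Haao and Capg are highest in repopulation, and Diaph3 is low in adult only.

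Between the 2 proliferating groups, genes with 5 or more sites leaned less to 1 direction than they did against adult, and the lean depended on the setting. In repopulating against PND8 cells, 48 (20.9%) of 230 were higher and 38 (16.5%) lower, against 16.7% and 14.2% of all genes tested and 30.9% in either direction, and the median log2 fold change was 0.03. Among genes with 1 or more sites 922 (18.6%) were higher and 803 (16.2%) lower, and with library sizes only 813 were higher and 1005 lower, which turns the balance. With the header code as a term, an alternative added after seeing the data, the calls with 5 or more sites were 67 higher and 36 lower. With library sizes only they were 44 and 45. Fat3, an atypical cadherin gene, had 45.4 and 53.5 CPM in PND8 and 379 and 309 in repopulation (2.80 ± 0.16, adjusted p = 2.86e-08). Haao, Trp53i11 and Arhgap15, which encodes a GTPase-activating protein of Rac, were higher by 4.03 ± 0.15, 3.05 ± 0.20 and 3.47 ± 0.35 (adjusted p = 7.76e-10, 1.25e-07 and 7.14e-06). Il1r2 had 0.110 and 0.347 against 2.20 and 3.17, and its adjusted p of 3.75e-03 became 0.0515 without PND8 Ki67-positive replicate 1.

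Lower in repopulation than in PND8 were Ednrb, Sept9, Sash1, Mpzl1 and Cryba4. Ednrb, encoding the endothelin receptor B, had 28.4 and 20.0 CPM in PND8 and 3.01 and 2.59 in repopulation and fell by 3.10 ± 0.30 (adjusted p = 4.13e-06). Sept9, a septin gene, had 149 and 165 against 40.7 and 43.3 and fell by 1.90 ± 0.10 (adjusted p = 1.62e-08). Sash1, a signalling scaffold gene, fell by 2.22 ± 0.21 (adjusted p = 3.25e-06), Mpzl1 fell by 2.82 ± 0.52 (adjusted p = 1.10e-03) and Cryba4, a crystallin gene, fell by 1.35 ± 0.17 (adjusted p = 4.95e-05). In these 5 genes and in the 5 that were higher, the 2 groups did not overlap, as the rule for naming them required.

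The lists of microglial genes differed in how often their members had a site without H3K27ac. Of the microglial transcription factor genes 15 of 18 (83.3%) had one, 50 sites in all, and 17 had a site with H3K27ac in all 12 lists, 109 in all. Of the homeostatic genes 8 of 16 had one (13 sites), with 14 having a site with H3K27ac in all 12 lists (45 sites). Of all genes 33.6% had a site without H3K27ac, and of the 12230 genes tested in RNA 4951 had one. All 18 transcription factor genes and all 16 homeostatic genes were among those tested. Over all genes, sites without H3K27ac numbered 12287 and sites with it in all 12 lists 9031. Both lists thus had fewer sites of the former kind than of the latter, unlike all genes. The calls of each list cover all its tested genes, with or without a site. They stand beside the calls over all genes tested. Those were 25.1% higher and 24.3% lower in PND8 against adult, and 23.9% and 21.0% in repopulation against adult. In repopulation against PND8 they were 16.7% and 14.2%. In adult-to-PND8 the transcription factor genes had 10 lower and 2 higher of 18, with a median log2 fold change of -0.33, and in repopulation 12 lower and 1 higher. Mitf, encoding a factor of lysosomal genes, had 4 sites and 89.4 and 89.8 CPM in adult, 58.3 and 54.8 in PND8 and 44.2 and 33.7 in repopulation. It fell by 0.66 ± 0.14 (adjusted p = 1.17e-03) in PND8 and fell by 1.20 ± 0.14 (adjusted p = 1.47e-05), without overlap. Irf8, encoding an interferon regulatory factor needed by microglia, had 482 and 484 in adult and 387 and 409 in PND8, -0.28 ± 0.08 (adjusted p = 0.0134), and adjusted p was 0.111 without PND8 Ki67-positive replicate 1.

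Of the homeostatic genes 9 of 16 were lower in PND8 and none higher; 1 was higher and 6 lower in repopulation against adult, and 8 were higher and 1 lower in repopulation against PND8. Selplg, encoding the ligand of P-selectin, with 2 sites, had 861 and 858 in adult, 479 and 445 in PND8 and 832 and 922 in repopulation. It fell by 0.89 ± 0.11 in PND8 (adjusted p = 2.13e-05) and was 0.92 ± 0.11 higher in repopulation than in PND8 (adjusted p = 3.30e-05). Csf1r, encoding the receptor on which microglia depend, had 1 site without H3K27ac 9.89 kb upstream and 8 with it in all 12 lists, and its level changed by -0.17 ± 0.12 in PND8 (adjusted p = 0.278). Sall1, a factor of microglial identity, had 4 sites, the strongest 312 kb upstream and 76 bp from an H3K27ac peak.

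Of the 16 interferon genes 1 had a site with H3K27ac in all 12 lists, while 6 (37.5%) had sites without H3K27ac, 11 in all. Over all 20999 genes, 3635 had a site of the former kind and 33.6% one of the latter, a share near that of the list. All 16 interferon genes were higher in repopulation than in adult and in repopulation than in PND8, with median log2 fold changes of 2.71 and 2.40. In PND8 against adult 5 were higher and 1 lower. Ifit1, encoding an RNA-binding antiviral protein of a family of similar genes, had 3 sites and 3.93 and 4.15 CPM in adult, 2.64 and 4.16 in PND8 and 27.3 and 25.9 in repopulation, a log2 fold change of 2.71 ± 0.25 against adult (adjusted p = 1.57e-06). Its strongest site, at chr19:34662094-34662206, had H3K4me3 signals of 24.9 and 33.6. Mx1, an antiviral GTPase gene with 2 sites, had 16.8 and 16.5, 23.0 and 31.9, and 107 and 110. Ifih1, encoding a sensor of double-stranded RNA, had 1 site of 98.9, 42.0 and 65.2 in ATAC signal and fell by 0.77 ± 0.14 in PND8 (adjusted p = 5.33e-04), whereas in repopulation it was higher than in adult by 0.70 ± 0.13 (adjusted p = 8.67e-04).

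Of the cell cycle genes 13 of 30 (43.3%) had a site without H3K27ac, 34 sites in all. Of all 30, with or without a site, 26 were higher in PND8 and 26 in repopulation than in adult, with 1 and 2 lower. E2f7, encoding a repressor of the E2F family, had 4 sites and none with H3K27ac in all 12 lists, with 0.925 and 0.978 CPM in adult, 38.0 and 35.6 in PND8 and 42.1 and 55.4 in repopulation (5.25 ± 0.28, adjusted p = 9.79e-09, in PND8). Ccne1, encoding cyclin E1, had 4 sites and none with H3K27ac in all 12 lists, with 1.504 and 0.489, 15.4 and 15.1, and 20.5 and 27.8 (3.90 ± 0.39, adjusted p = 2.71e-06). Ki67 status was used to sort these groups. In PND8 both genes were higher in Ki67-negative than in Ki67-positive cells, with 46.5 and 56.2 for E2f7 and 34.3 and 45.6 for Ccne1. Ccnd2, encoding cyclin D2, had 8 sites, the most of the list, with no call in any comparison. Its strongest site lay 3204 bp inside the gene and carried an Rpb2 peak of 12.7 in PND8.

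Of the disease-associated genes 10 of 18 had a site. Of all 18, with or without a site, 10 were higher in PND8 and none lower. In repopulation 8 of the 18 were higher and 6 lower than in adult. Of all genes tested 25.1% and 24.3% were higher and lower in PND8 and 23.9% and 21.0% in repopulation. Axl, a receptor kinase gene with 1 site 17 bp from an H3K27ac peak, had 37.0 and 41.9 CPM in adult, 99.8 and 142 in PND8 and 392 and 470 in repopulation (3.45 ± 0.24 against adult, adjusted p = 1.01e-07). Csf1, the ligand of CSF1R, had 64.1 and 61.2, 199 and 182, and 62.2 and 62.2 (1.60 ± 0.10 in PND8, adjusted p = 5.13e-08). Of the inflammatory genes 9 of 16 had a site, and of 12 tested 5 were higher and 3 lower in PND8. Of the immediate early genes 10 of 16 had one (32 sites). Of all 16, with or without a site, 2 were higher and 8 lower in repopulation than in adult. Klf4, encoding a Kruppel-like factor, with 6 sites, had 5.2 and 5.74, 14.2 and 16.9, and 11.6 and 11.1 (1.5 ± 0.21 in PND8, adjusted p = 6.56e-05).

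Genes of CTCF and cohesin had sites without H3K27ac in 8 of 13 cases (61.5%) and sites with H3K27ac in all 12 lists in 1. Over all 20999 genes, 33.6% had a site of the former kind and 3635 genes one of the latter. Ctcf itself had 136 and 132 CPM in adult, 169 and 172 in PND8 and 153 and 170 in repopulation, a change of 0.34 ± 0.09 in PND8 (adjusted p = 5.25e-03; 0.0511 without adult replicate 2). Of 12 tested, 8 were higher and 1 lower in PND8 than in adult, among them Rad21, a cohesin subunit gene, at 1.18 ± 0.10 (adjusted p = 5.21e-07). Of the corepressor and polycomb genes 5 of 16 (31.3%) had a site. Bcl6, encoding a transcriptional repressor, had 53.7 and 46.1, 19.7 and 17.7, and 43.5 and 44.2 and fell by 1.41 ± 0.16 in PND8 (adjusted p = 7.31e-06), and Cbx7, a polycomb subunit gene, fell by 1.48 ± 0.19 (adjusted p = 3.15e-05). Of developmental transcription factor genes 11 of 20 had a site, 15 in all, and 1 of the 20 was expressed highly enough to be tested. Nkx2-2, a neural homeobox gene with 3 sites, had at most 0.220 CPM in any library, and its strongest site lay 154 kb from the nearest H3K27ac peak. Gata4 and Lhx2 had 2 sites each and at most 0.152 and 0.642 CPM.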

How the data were processed

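The counts were made by the authors with HOMER over exons of its mm10 transcripts, 1 transcript per gene, per the file headers, and the deposited TPM values came from the same tool. The submitters' processing notes name STAR 2.7.0f, Bowtie2 2.3.4.1, HOMER 4.11 and DESeq2, without its version. Peaks were called on each library separately, per the file headers. The deposited signal of a peak is its tag count scaled to 10000000 tags, per the file headers, its fold is the enrichment over the input or the local region as the authors' caller gives it, and its score is the authors' HOMER peak score; these 3 serve only as descriptions of peaks inside their own list. The ATAC headers name no build and were taken to be mm10, like the rest.

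Sites were overlapped by at least 1 bp and assigned to the gene of the nearest TSS of the count table. Shares of sites carry exact Clopper-Pearson 95% intervals. Genes were tested on the deposited counts with edgeR 4.0.16 in R 4.3.3: TMM, filterByExpr, 1 quasi-likelihood fit (glmQLFit, glmQLFTest) over all 10 RNA libraries, and Benjamini-Hochberg adjustment over 12230 genes at 0.05. CPM were taken over the summed counts of the genes that passed the filter, multiplied by the TMM factor of the library. The scripts were tested on simulated data. Alternatives included DESeq2 1.42.0, a replicate block, no filter on low counts and leaving out each replicate. Replicates are described in the labels as independent biological replicates, 2 per condition. Python 3.11.15 was used for overlaps.

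The members, gene lists and tests were chosen with earlier results of these data known. Named genes are the 10 with the most sites, up to 4 per list with the most sites, and in each comparison, among called genes with 5 or more sites whose groups did not overlap, the 5 with the largest change in each direction; of these, the text gives those it discusses and the plot shows the last set. Other genes and sites are given by what the sites overlap. Sites shown for their Rpb2 or H3K4me3 signal, and Rad21, were chosen after their values were seen. Sequences were read from RefSeq start windows alone, since no genome was used here. Strand settings of the counting are not given in the sources used here, so reads of overlapping antisense genes cannot be told apart. Every column of the tables was matched to a label, leaving 0 unmatched. Input libraries were not analysed here. The values of 1 gene named by the rule are not reported here.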

Additional observations from a re-analysis of the deposited data

How the results depend on the processing

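The number of sites, 12298, was 3683 when only adult ATAC peaks with a score at or above the median were used, and 12316 to 12684 when 1 of the 12 H3K27ac lists was left out. The Rpb2 and H3K4me3 shares rest mostly on low peaks. With list peaks at or above the median score, Rpb2 overlapped 0.0894% in adult replicate 1, 0% in adult replicate 2 and 1.17% in PND8. H3K4me3 in both lists then overlapped 1.47%. The PND8 Rpb2 share was 11.2% both for sites with no H3K27ac peak within 1000 bp and with the site's midpoint inside the Rpb2 peak, and H3K4me3 in either list overlapped 7.39%. With a fold of at least 2 required, genes called near the sites numbered 903, 817 and 614 in PND8 against adult, repopulation against adult and repopulation against PND8, where 2542, 2346 and 1725 were called without it. Leaving out 1 library gave 1891 to 1996, 1562 to 1932 and 1118 to 1248 genes with 1 or more sites, and 101 to 109, 82 to 110 and 59 to 64 with 5 or more; the lowest counts against adult in repopulation came without repopulation replicate 2, and that of 1118 without repopulation replicate 1. Fewer libraries enter these fits. In 127 called pairs of a named gene and a comparison, 1177 alternatives gave 1062 calls as reported, 115 with the same direction past the threshold no longer, and none reversed; 40 pairs were lost in at least 1 alternative. With only library sizes for scaling, the median over all genes moved by under 0.1 in log2 units.

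Deviations of same-numbered libraries in the groups compared correlated at -0.008 (adult and PND8 Ki67-positive), 0.010 (adult and repopulation) and 0.047 (PND8 and repopulation), so the replicate numbers were not taken as pairing them. Between Ki67-negative and Ki67-positive libraries, which are not compared here, the correlation was 0.338 in PND8 and 0.263 in repopulation, where same-numbered libraries share a header code. With a replicate block 2752, 2561 and 1963 genes with 1 or more sites were called. With 2 libraries per group and 1 ATAC library per group, neither small RNA changes nor ATAC changes at single sites can be resolved.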
